A study of Homo sapiens with 6 samples.

Results

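The epithelial and intestinal miRNAs described here are 9 mature miRNAs, chosen by name: hsa-miR-200a-3p, hsa-miR-200b-3p, hsa-miR-200c-3p, hsa-miR-141-3p and hsa-miR-429 of the miR-200 family, hsa-miR-192-5p, hsa-miR-194-5p and hsa-miR-215-5p of the intestinal group, and hsa-miR-203a-3p. They are 9 of the 2588 mature miRNA entries measured in exosomes, the small vesicles that cells release, of HCT116, an established human colorectal carcinoma line. Cells were transfected by microporation for 40 h with a control siRNA (siCTL, 3 libraries) or with one that targets PRDX3, the gene of a mitochondrial peroxiredoxin (siPRDX3, 3 libraries). Both groups were then kept for 24 h in medium with 10% nanoparticle-free serum before a commercial kit was used to isolate the exosomes. Separate cultures are not named in the labels for the libraries of a group, and the p-values therefore reflect the variation among these 6 libraries, part or all of which may be technical. The design text closes with a sentence on another siRNA in endothelial cells. It goes against the titles and the cell line of all 6 samples, and the titles were followed. A miRNA assay does not measure PRDX3 mRNA, so the knockdown was not checked.

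A miRNA is a short RNA that pairs through its seed, bases 2 to 8 from its 5′ end, with matching sites in mRNAs and lowers the output of those mRNAs. The miR-200 family is made by epithelial cells and is known for repressing ZEB1 and ZEB2, the transcription factors that switch off E-cadherin during the transition to a mesenchymal state. miR-192, miR-194 and miR-215 are enriched in intestinal epithelium, with miR-192 and miR-194 also abundant in liver, and their genes are known to respond to p53. miR-203a is a miRNA of the epidermis and other stratified epithelia that limits the stem cell factor p63.

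The mature sequences are shown because the members fall into seed groups, and because some differ so little that the division of reads between them matters. All 9 members matched a RefSeq mature sequence (GRCh38.p14), as did 2281 of the 2588 entries. Capitals mark the seed, and each sequence runs 5′ to 3′. The seed AAUACUG is shared by 3 members.
hsa-miR-200b-3p: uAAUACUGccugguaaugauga
hsa-miR-200c-3p: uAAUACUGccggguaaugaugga
hsa-miR-429: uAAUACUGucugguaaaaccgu
The other miR-200 members carry AACACUG.
hsa-miR-200a-3p: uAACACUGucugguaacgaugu
hsa-miR-141-3p: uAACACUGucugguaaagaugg
miR-192-5p and miR-215-5p share UGACCUA.
hsa-miR-192-5p: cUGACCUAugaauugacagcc
hsa-miR-215-5p: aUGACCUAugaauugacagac
The remaining members have a seed of their own.
hsa-miR-194-5p: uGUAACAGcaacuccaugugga
hsa-miR-203a-3p: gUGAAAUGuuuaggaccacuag
No other measured entry with a RefSeq sequence carried one of these 5 seeds.

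Some members of a seed group were nearly identical. Counted from 1 at the 5′ end, with the base of the first-named miRNA first, miR-200a-3p and miR-141-3p differed by C17A and U22G. miR-192-5p and miR-215-5p differed by C1A and C20A. Over their first 22 bases miR-200b-3p and miR-200c-3p differed by U11G and A22G. miR-429 was less close, with 6 differences from miR-200b-3p in 22 bases, namely C9U, U17A, G18A, A19C, U20C and A22U. How the authors treated reads that map to several places is not given in the sources used here, so the division of reads between such close pairs is uncertain. miR-200a-3p and miR-200b-3p, of different seed groups, differed by C4U within the seed and by U9C, C17U and U22A outside it.

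The hairpins lie in 5 places of the genome (GENCODE v29, GRCh38). MIR200B (chr1:1167104-1167198, plus strand), MIR200A (chr1:1167863-1167952) and MIR429 (chr1:1169005-1169087) follow each other with gaps of 664 and 1052 bases, outside any other annotated gene. MIR200C (chr12:6963699-6963766, plus strand) and MIR141 (chr12:6964097-6964191) lie 330 bases apart in an intron of the non-coding host gene MIR200CHG. MIR192 (chr11:64891137-64891246, minus strand) and MIR194-2 (chr11:64891355-64891439) lie 108 bases apart in an exon of the non-coding MIR194-2HG. MIR215 (chr1:220117853-220117962, minus strand) and MIR194-1 (chr1:220118157-220118241) lie side by side within an intron of IARS2, on the strand opposite to that gene. Mature miR-194-5p is the same from both of its hairpins. MIR203A (chr14:104117405-104117514, plus strand) overlaps MIR203B on the opposite strand and no other annotated gene.

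The seed matches that connect the miR-200 family with its best-known targets can be read in the 3′ UTRs of ZEB1 and ZEB2 (GENCODE v29 transcripts, sense strand only). The search used CAGTATT, the match to AAUACUG, and CAGTGTT, the match to AACACUG. These motifs do not overlap each other. The ZEB1 3′ UTR, of 1938 bases, held 5 and 3 matches. Windows of that length were taken from the 5103 UTRs at least as long, and 21.4% and 24.6% of these held at least 1 match. As many matches as in ZEB1 were in 0.0392% and 0.412% of them. The ZEB2 3′ UTR, of 5370 bases, held 5 and 4 matches. At least 1 match was in 49.0% and 51.1% of 890 UTRs, and as many as in ZEB2 in 0.112% and 1.12%. The UTRs compared include that of the gene itself, and for ZEB1 also that of ZEB2, so these percentages count them too. The first site per gene and motif that is followed by an A is shown over 23 bases, with the seed match in capitals and the position of its first capital in the UTR.
ZEB1 at 369: attgttttatcttatCAGTATTa
ZEB1 at 1533: tgagatttgatttaaCAGTGTTa
ZEB2 at 455: cgcactacaatgcatCAGTATTa
ZEB2 at 208: tgcaaaaattttgtaCAGTGTTa
A match is a description of letters. Neither ZEB mRNA was measured here.

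Each library holds few miRNA reads. They were recovered from the deposited log2(value + 1) values, in which 1 read is worth a fixed step per library, and summed to between 40146 and 230946 per library. A count of 0 reads allows a share of up to 0.00747% in siCTL 1, the smallest library, and 0.00130% in siPRDX3 1, the largest, with intervals and limits that cover counting error only. 686 of the 2588 entries had a read in any library, and 80 had enough reads for the test. miR-4451 alone took 11.8% to 76.9% of a library. siCTL 1 and siCTL 2 stand apart: 30 and 23 of the 80 tested entries had no read there, against 0 in siCTL 3 and 1, 8 and 1 in siPRDX3 1, 2 and 3. Fold changes and summed shares of the members were also computed without these libraries.

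Exosomes of both groups carried little of these miRNAs, and most of the reads came from a few libraries. The 9 members together had 3, 141 and 1447 reads in siCTL 1, 2 and 3 against 704, 11 and 202 in siPRDX3 1, 2 and 3. As shares of all miRNA reads these are 0.00747%, 0.174% and 1.16% in siCTL and 0.305%, 0.0114% and 0.286% in siPRDX3, with means of 0.447% ± 0.623 and 0.201% ± 0.164 (SD, n = 3 each). The highest and the lowest share both belonged to siCTL libraries, and the groups overlapped. The difference of the means, −0.247 percentage points, became −0.959 without siCTL 1 and siCTL 2 and 0.110 without siCTL 3. Of the 9 members, 2, 2 and 7 had a read in the siCTL libraries and 7, 2 and 4 in the siPRDX3 libraries. miR-200c-3p was the only member with enough reads in 3 libraries to be tested. miR-429 had no read in any library. In these bulk exosome samples, fewer vesicles that carry a miRNA and less of it per vesicle cannot be told apart.

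**Figure D1:**
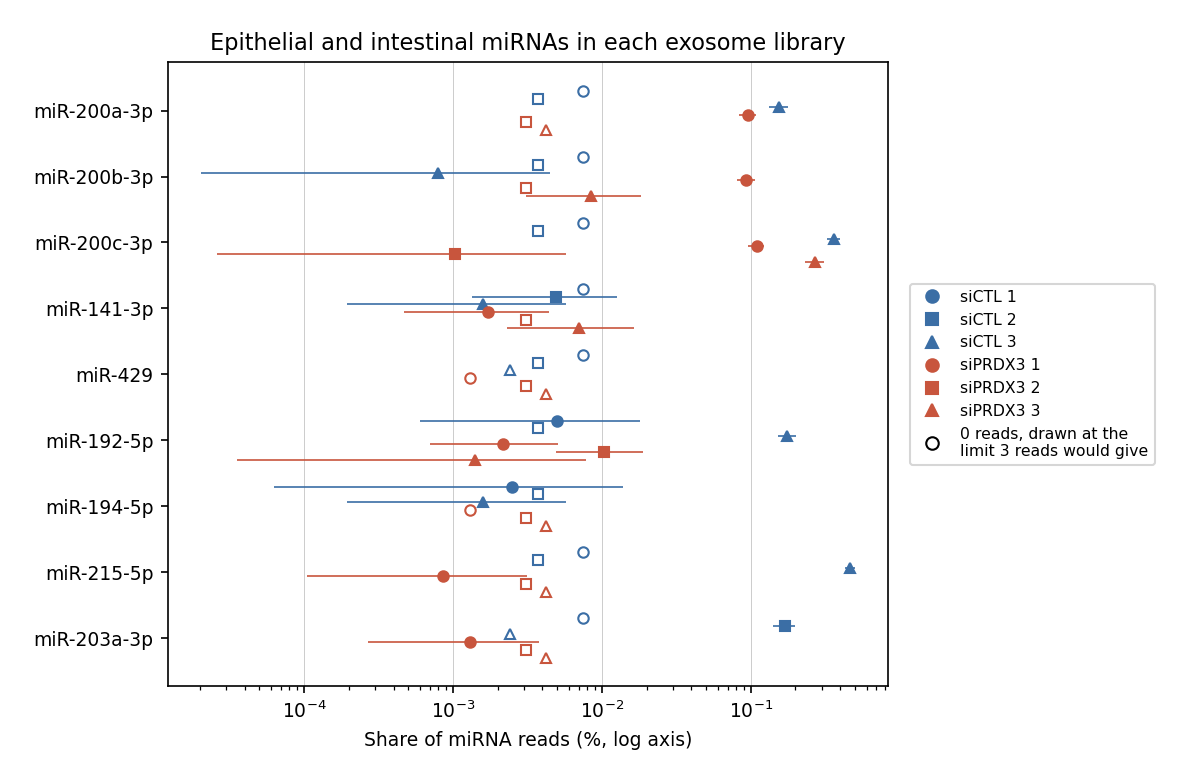
Share of miRNA reads (percent, log axis) of each of the 9 members in each of the 6 libraries, with exact 95% intervals; open symbols are libraries with 0 reads, drawn at the share that 3 reads would give. miR-200c-3p lies between 0.110% and 0.361% in 3 libraries, while miR-215-5p and miR-203a-3p each have 1 library far to the right of the others.

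miR-200c-3p, the member with the most reads in all, had 0, 0 and 450 reads in siCTL 1, 2 and 3 against 253, 1 and 190 in siPRDX3 1, 2 and 3. Its shares were 0.361% in siCTL 3 (exact 95% Clopper-Pearson interval 0.328 to 0.396), 0.110% in siPRDX3 1 (0.0965 to 0.124), 0.00103% in siPRDX3 2 and 0.269% in siPRDX3 3 (0.232 to 0.310). It was high in 3 libraries from both groups and at 0 or 1 read in the other 3, so the groups overlapped and the highest share was in a control library. It ranked 36th among the entries of siCTL 3, 80th in siPRDX3 1 and 37th in siPRDX3 3. At the share of siCTL 3, siCTL 1 would have given 145 reads and siCTL 2 292, where none was found, and siPRDX3 2 would have given 349, where 1 was found. Counted as independent reads, the depth of these 3 libraries would thus have shown that share. PCR reads are not independent molecules, and the number of molecules sampled was not tested.

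On the deposited log2(value + 1) scale, the level of miR-200c-3p was 0, 0 and 11.81 in siCTL and 9.56, 3.02 and 10.32 in siPRDX3, with means of 3.94 ± 6.82 and 7.63 ± 4.02 (SD, n = 3 each). limma gave a log2 fold change of 3.69 for siPRDX3 against siCTL (SE 3.85, 95% interval −5.35 to 12.74), with an adjusted p of 0.590 over the 80 tested entries. The interval spans large changes in both directions, so a difference of either sign was not detectable with these libraries. The background of this comparison was 0%, since none of the 80 tested entries passed an adjusted p of 0.05, while 6 had an unadjusted p under 0.05 and limma-voom called 1, miR-1260b. The median log2 fold change over the 80 was 1.72. Without siCTL 1 and siCTL 2 the fold change of miR-200c-3p turned to −4.18 (limma adjusted p = 0.797), and without siCTL 3 it rose to 7.63 (limma adjusted p = 0.0948). Over the 14 alternatives the adjusted p lay between 0.0948 and 0.926. The direction thus rests on which control libraries are counted.

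**Figure D2:**
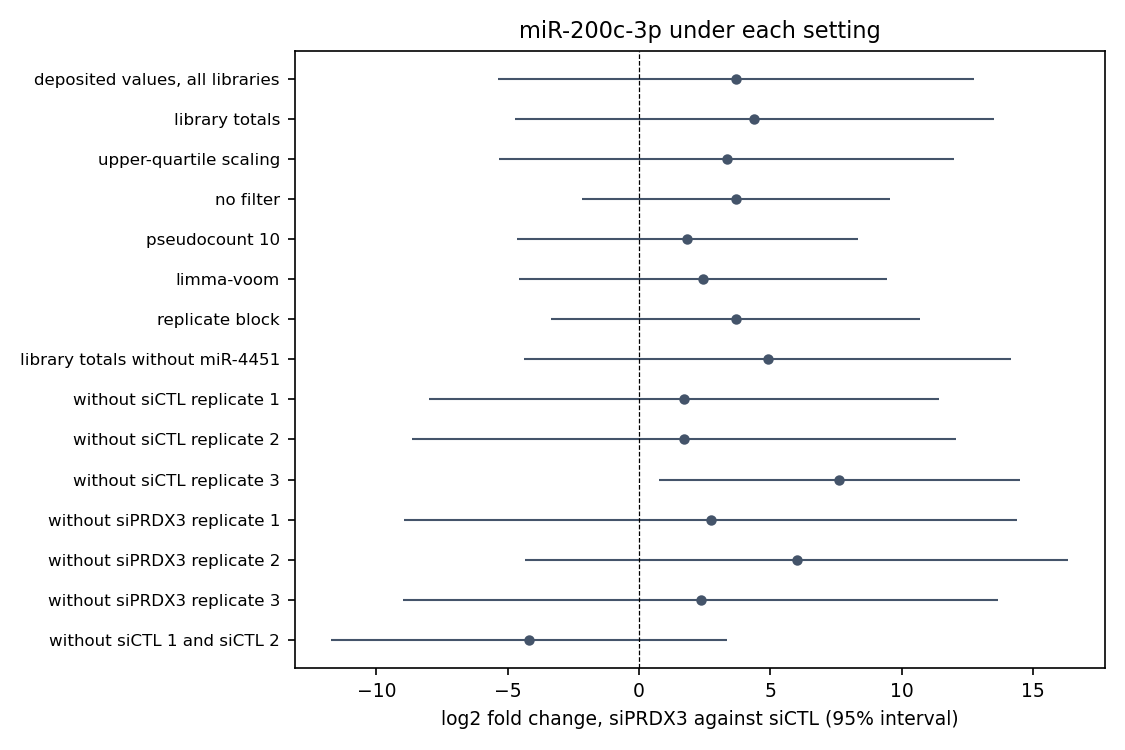
Log2 fold change of miR-200c-3p, siPRDX3 against siCTL, with its 95% interval, for the deposited values and for each alternative setting. The estimate lies above 0 in every setting drawn but that without siCTL 1 and siCTL 2, where it is −4.18, and the one interval that leaves out 0 is that without siCTL 3.

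The tested entries whose deposited levels were most like those of miR-200c-3p over the 6 libraries were miR-432-5p (Pearson's r = 0.987), miR-3184-5p (0.979), miR-744-5p (0.979), miR-6087 (0.976) and miR-221-3p (0.965). These values describe 6 libraries that differ in depth. All 5 entries had 0 reads in siCTL 1 and siCTL 2 and at most 7 in siPRDX3 2. miR-744-5p, for example, had 716 reads in siCTL 3 and 2822, 4 and 273 in siPRDX3 1, 2 and 3. They share with miR-200c-3p the libraries in which many tested entries are at 0.

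miR-141-3p, which is encoded next to miR-200c, was near the floor in every library. It had 0, 4 and 2 reads in siCTL against 4, 0 and 5 in siPRDX3. No library stands out, and the groups overlapped. Of the reads of miR-200c-3p and miR-141-3p together, miR-200c-3p took 99.6% in siCTL 3, 98.4% in siPRDX3 1 and 97.4% in siPRDX3 3. These are the libraries with over 100 reads of the pair. In siCTL 2 the pair had no read of miR-200c-3p and 4 of miR-141-3p (miR-200c-3p 0%, exact 95% interval 0 to 60.2), and in siPRDX3 2 the only read was of miR-200c-3p.

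The chromosome 1 members behaved less alike. miR-200a-3p had 0, 0 and 192 reads in siCTL against 221, 0 and 0 in siPRDX3. It was found in 1 library of each group and in no other, at 0.154% in siCTL 3 and 0.0957% in siPRDX3 1. At the share of siCTL 3, siPRDX3 3 would have held 109 reads, and none was found. miR-200b-3p had 0, 0 and 1 reads in siCTL against 216, 0 and 6 in siPRDX3. It was high in siPRDX3 1 alone, at 0.0935%, and 1 read in siCTL 3 overlapped with the 0 of siPRDX3 2. These miRNAs come from hairpins 664 bases apart on the same strand, yet miR-200a-3p made up 99.5% of their joint reads in siCTL 3 (exact 95% interval 97.1 to 99.99) and 50.6% in siPRDX3 1 (45.8 to 55.4). The intervals of these libraries do not overlap; with 1 informative library per group, this compares the libraries and not the siRNAs. miR-429, encoded at the end of the same cluster, had 0 reads beside them.

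The family's close pairs split in different ways as well. Of the reads of miR-200c-3p and miR-200b-3p, which share a seed and all but 2 of 22 compared bases, miR-200c-3p took 99.8% in siCTL 3, 53.9% in siPRDX3 1 and 96.9% in siPRDX3 3. siPRDX3 1 was the library with a near-even split for both pairs that include miR-200b-3p. Summed over its 5 members, the miR-200 family had 0, 4 and 645 reads in siCTL against 694, 1 and 201 in siPRDX3. The family's share was 0%, 0.00494% and 0.517% in siCTL and 0.301%, 0.00103% and 0.284% in siPRDX3, with means of 0.174% ± 0.297 and 0.195% ± 0.168 (SD, n = 3 each). The difference of 0.0213 percentage points is smaller than either SD. Without siCTL 1 and siCTL 2 it is −0.322.

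**Figure D3:**
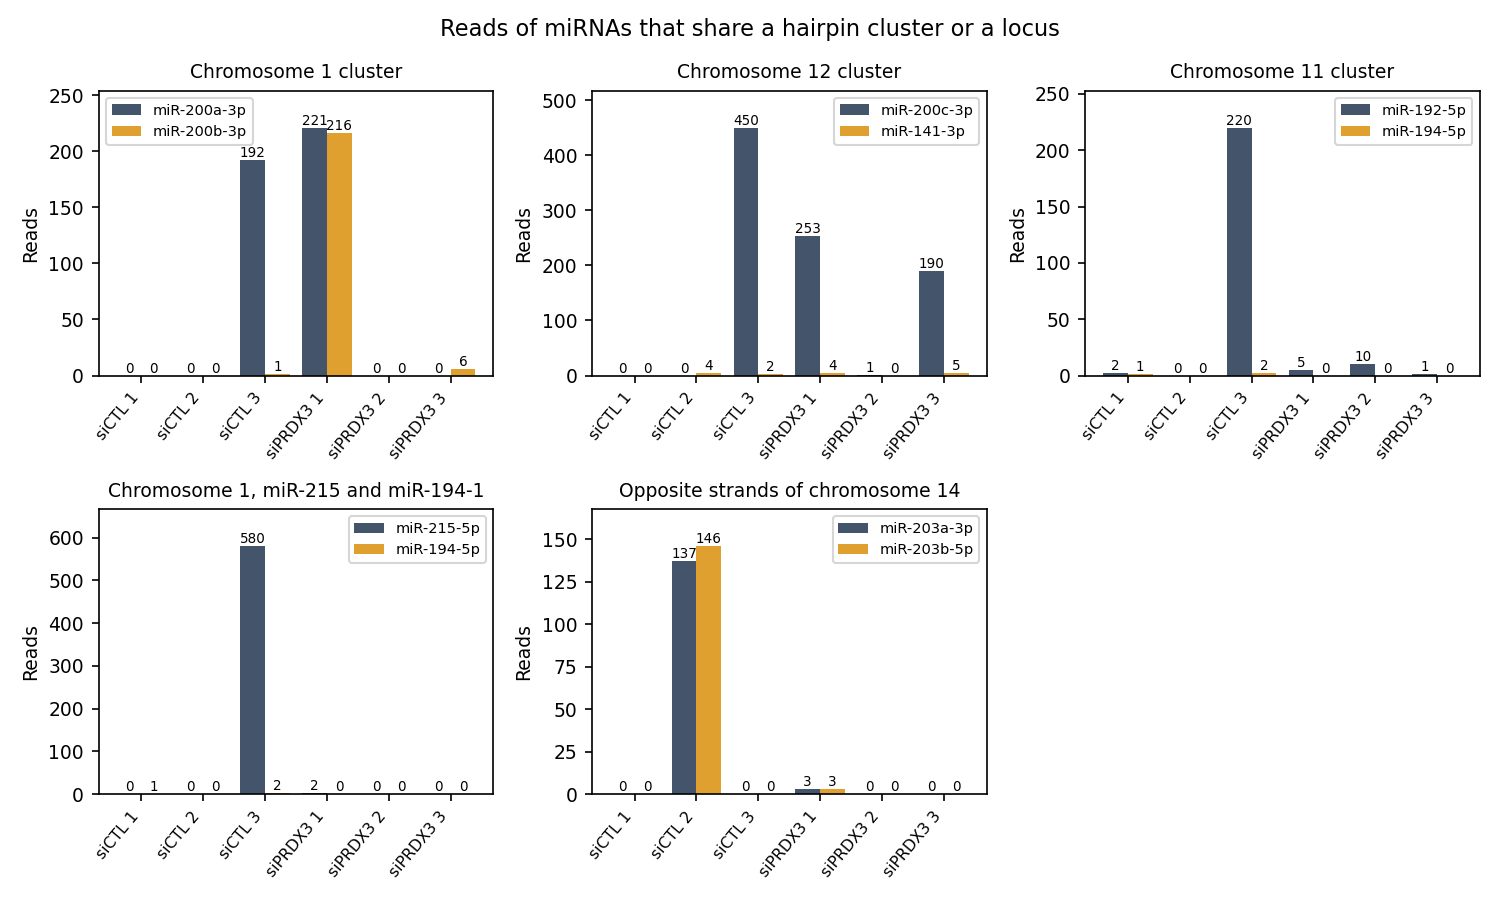
Reads of neighbouring miRNAs in each library, 1 panel per hairpin cluster or locus; bars are reads in a library and the number over a bar is its count. miR-200a-3p and miR-200b-3p stand at 221 and 216 reads in siPRDX3 1 but at 192 and 1 in siCTL 3, and miR-194-5p stays at or under 2 reads beside both of its neighbours.

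The intestinal members were found mostly in 1 control library. miR-215-5p had 0, 0 and 580 reads in siCTL against 2, 0 and 0 in siPRDX3. It was high in siCTL 3 alone, where it was the most abundant of the 9 members at 0.465% (exact 95% interval 0.428 to 0.504) and ranked 32nd. At that share siPRDX3 1 would have given 1074 reads, siPRDX3 2 449 and siPRDX3 3 329, and the other control libraries 187 and 376. Counted as independent reads, which PCR reads are not, the depth of these libraries would have shown that share. The other siCTL libraries were as empty as the siPRDX3 libraries.

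miR-192-5p, which shares its seed with miR-215-5p, had 2, 0 and 220 reads in siCTL against 5, 10 and 1 in siPRDX3. It too was high in siCTL 3 alone, at 0.176%, and the other siCTL libraries, at 2 and 0 reads, overlapped with the siPRDX3 libraries. In siCTL 3, miR-215-5p took 72.5% of the joint reads of the pair (exact 95% interval 69.3 to 75.6). miR-194-5p, which both loci encode, had 1, 0 and 2 reads in siCTL against none in siPRDX3. In siCTL 3 it stood far below either neighbour: miR-192-5p took 99.1% of their joint reads, and miR-215-5p took 99.7%. A count of 0 against counts of 1 and 2 was not a detectable difference at this depth.

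As a group, miR-192-5p, miR-194-5p and miR-215-5p had 3, 0 and 802 reads in siCTL against 7, 10 and 1 in siPRDX3. Their summed share was 0.00747%, 0% and 0.643% in siCTL and 0.00303%, 0.0103% and 0.00141% in siPRDX3. The means were 0.217% ± 0.369 and 0.00493% ± 0.00476 (SD, n = 3 each). The lower mean in siPRDX3 came from siCTL 3: without it the difference is 0.00119 percentage points in place of −0.212. The groups overlapped, since siCTL 2 had no read of the 3.

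miR-203a-3p had 0, 137 and 0 reads in siCTL against 3, 0 and 0 in siPRDX3. It was high in siCTL 2 alone, at 0.169% (exact 95% interval 0.142 to 0.200) and rank 21, the library in which miR-200a-3p, miR-200b-3p, miR-200c-3p, miR-192-5p and miR-215-5p had no read. At that share siCTL 3 would have given 211 reads and siPRDX3 1 391. The entry from the opposite strand, hsa-miR-203b-5p, moved with it, at 0, 146 and 0 reads in siCTL against 3, 0 and 0 in siPRDX3. The mature sequences lie at chr14:104117469-104117490 on the plus strand and chr14:104117468-104117489 on the minus strand, and overlap over 21 bases.
hsa-miR-203a-3p: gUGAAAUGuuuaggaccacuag
hsa-miR-203b-5p: uAGUGGUCcuaaacauuucaca
miR-203a-3p took 48.4% of their joint reads in siCTL 2 (exact 95% interval 42.5 to 54.4), and each had 3 reads in siPRDX3 1. Whether the counting used strand is not given in the sources used here, so the entries cannot be told apart.

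The opposite arms of the member hairpins were nearly without reads. Of 8 such entries, miR-200a-5p had 12 reads in siPRDX3 1, miR-194-3p had 1 in siCTL 3 and 1 in siPRDX3 1, and miR-215-3p had 1 in siCTL 3. miR-200b-5p, miR-200c-5p, miR-141-5p, miR-192-3p and miR-203a-5p had none. miR-200a-3p took 94.8% of the reads of its arms in siPRDX3 1. Beside the cluster mates and MIR203B, the only hairpin within 10 kb of a member was that of miR-6750, 7116 bases from MIR192, whose 3p arm had 1 read in siPRDX3 3.

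Several members had nearly all of their reads in 1 library, as did many other entries. For each entry with at least 100 reads in all, the shares of the 6 libraries were summed and the part found in the top library was taken. Among the 155 such entries that part had a median of 67.7%, and it reached 90% in 61 entries, or 39.4%. Of the 6 members with at least 100 reads, 4 reached 90%: miR-215-5p (99.8%, siCTL 3), miR-203a-3p (99.2%, siCTL 2), miR-200b-3p (91.0%, siPRDX3 1) and miR-192-5p (90.3%, siCTL 3). miR-200a-3p stood at 61.7% and miR-200c-3p at 48.7%, both with siCTL 3 on top, and the median of the 6 was 90.6%. With 6 members this is a description. The top libraries of the 4 were a mixture of both groups. Over the 61 entries at 90% or more the top library was siPRDX3 1, the deepest, in 28.

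**Figure D4:**
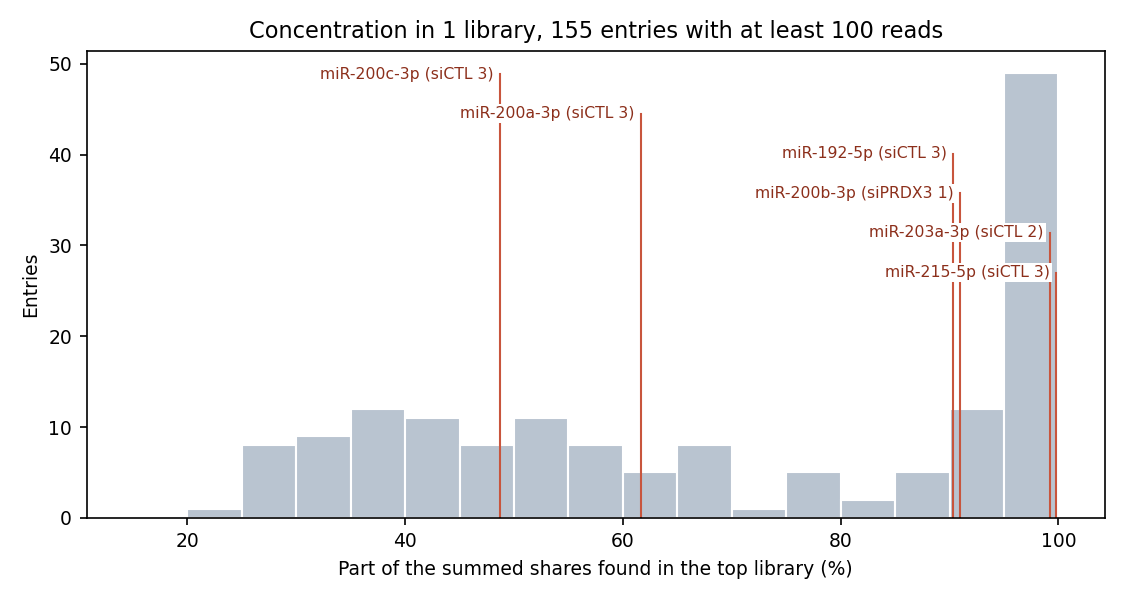
Number of entries by the part of their summed shares found in the top library (percent), for the 155 entries with at least 100 reads; lines mark the 6 members with at least 100 reads and name that library. miR-215-5p and miR-203a-3p lie at the right end with 99.8% and 99.2%, and miR-200c-3p is the most evenly spread of the 6 at 48.7%.

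Fitted without the filter on low reads, where again 0% of the 686 entries with reads passed in limma and 19 had an unadjusted p under 0.05, none of the 8 members with reads passed. Their limma adjusted p-values lay between 0.562 and 0.935. The fitted log2 fold changes were above 0 for miR-200b-3p (3.84) and miR-200c-3p (3.69) and below 0 for the other 6, from −0.41 for miR-200a-3p to −3.13 for miR-215-5p. For entries at 0 in most libraries these values depend on the added 1 and are no bounds. The signs of miR-200a-3p, miR-192-5p and miR-215-5p turned without siCTL 3 (differences of 3.12, 1.53 and 0.93), and that of miR-203a-3p without siCTL 2 (1.10). That of miR-200a-3p also turned without siPRDX3 2 or siPRDX3 3 (1.15 each). That of miR-141-3p, at −0.54, turned without siCTL 2 (0.89), without siPRDX3 2 (0.93) and with library totals (0.20).

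Other epithelial miRNAs, from a list of 11, were together more abundant than the members in each library. 7 of the 11 had reads, with a summed share of 1.75%, 0.626% and 3.11% in siCTL and 3.68%, 1.75% and 1.65% in siPRDX3. In siCTL 2, 146 of the list's 507 reads were of miR-203b-5p, which cannot be told apart from the member miR-203a-3p. The 9 members had 141 reads in that library. miR-148a-3p, common in digestive epithelia, had 699, 323 and 1471 reads in siCTL against 2985, 908 and 432 in siPRDX3. It was thus found in all 6 libraries, and in siCTL 1 it made up 699 of the list's 704 reads. miR-205-5p, miR-96-5p, miR-203b-3p and miR-196b-5p had no read in any library, and the cell type was not tested with this list. miR-182-5p had 2, 1 and 1727 reads in siCTL against 2822, 77 and 196 in siPRDX3. miR-7-5p, which is known from neuroendocrine cells, had 1, 1 and 205 reads in siCTL against 726, 691 and 129 in siPRDX3. Both were low in siCTL 1 and siCTL 2, as miR-200c-3p was. Of the 5 tested entries none was called by limma, with adjusted p-values from 0.491 to 0.920. Their median log2 fold change was 1.77, beside 1.72 over all 80 tested entries. Without siCTL 3 limma called 2 of the 5, against 25% of all 80: miR-7-5p (log2 fold change 6.49, adjusted p = 0.0178) and miR-182-5p (5.80, adjusted p = 0.0409). That fit kept the filter on low reads as set over all 6 libraries. With siCTL 3 left out, both entries reached its CPM in siPRDX3 libraries only, the group where they are high. These calls are therefore no support for a difference. Without siCTL 1 and siCTL 2 the median log2 fold change of the 5 turned to −2.05.

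The list of 9 other miRNAs known to respond to p53 gave almost only miR-1246. That entry had 45, 514 and 838 reads in siCTL against 3496, 253 and 452 in siPRDX3, with a log2 fold change of −0.15 (SE 1.37, limma adjusted p = 0.927). It did not share the concentration of miR-215-5p in siCTL 3, since every library held it. This entry resembles a small nuclear RNA, and which RNA its reads came from was not tested. miR-34a-5p, the best-known p53 target among miRNAs, had 1 read in siCTL 1 and none elsewhere, and miR-16-5p had 2 reads in siCTL 3.

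Of 8 miRNAs of mesenchymal and blood cells 3 had reads. miR-10b-5p made up nearly all of them, with 954, 0 and 955 reads in siCTL against 730, 26 and 11 in siPRDX3. It was high where miR-200c-3p had no read, in siCTL 1, and also in siCTL 3, where miR-200c-3p was highest. limma gave it a log2 fold change of −0.86 (SE 3.87, adjusted p = 0.875), which was −4.61 without siCTL 1 and siCTL 2 and 1.01 without siCTL 3. The defining miRNAs of smooth muscle and fibroblasts were at or near 0: miR-145-5p, miR-199a-3p, miR-199a-5p, miR-199b-5p and miR-214-3p had no read, miR-143-3p had 17 in all and miR-155-5p, a lymphocyte miRNA, 22.

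Since miR-192 and miR-194 are also miRNAs of liver, the miRNAs of liver and red cells that abound in serum were set beside them. The 6 of that list took 10.3%, 4.85% and 9.50% of reads in siCTL against 3.53%, 13.2% and 5.41% in siPRDX3. The hepatocyte miRNA miR-122-5p had 1874, 48 and 6670 reads in siCTL against 5636, 9313 and 2371 in siPRDX3. Its count was highest in siPRDX3 2, where miR-215-5p had no read and miR-192-5p had 10, the highest count of miR-192-5p outside siCTL 3. The count of miR-122-5p was lowest in siCTL 2, where miR-192-5p and miR-215-5p had no read. Whether miR-122-5p and miR-192-5p follow each other was not tested. The log2 fold change of miR-122-5p was 0.96 (limma adjusted p = 0.737), and −1.03 without siCTL 1 and siCTL 2. The red cell miRNAs of the list had lower levels in siPRDX3, with log2 fold changes of −2.25 for miR-486-5p, −2.13 for miR-451a and −1.99 for miR-486-3p. None of the 3 passed (limma adjusted p from 0.397 to 0.546). On the deposited scale each level in siCTL lay above each in siPRDX3, as it did for 8.75% of the 80 tested entries. As shares of reads, only miR-486-5p stayed apart, at 2.65% or more in siCTL and 1.95% or less in siPRDX3. miR-451a had 1.51% in siPRDX3 2 against 1.07% in siCTL 1, and miR-486-3p 0.0786% in siPRDX3 2 against 0.0568% in siCTL 2. Without siCTL 1 and siCTL 2 the fold changes of the 3 were −1.75, −1.80 and −2.41. The part of serum RNA in the members' reads was not tested.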

How the data were processed

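Small-RNA libraries of exosomes (3 siCTL, 3 siPRDX3) were grouped by the sample titles. The authors deposited 1 table per library of log2 values for 2588 mature miRNA entries; Bowtie2 and bedtools 2.25.0 appear in the submitters' processing notes. Not given in the sources used here are genome build, annotation, strand use and the treatment of multiply mapped reads. These values were read as log2(x + 1). In each library x lies on multiples of the worth of 1 read (100% whole within 0.1 read, for values up to 100 reads), which gave reads, shares and exact Clopper-Pearson intervals. Totals were 40146, 80950 and 124735 reads in siCTL against 230946, 96660 and 70678 in siPRDX3. PCR reads are not independent molecules.

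The main test was limma 3.58.1 (R 4.3.3) on the log2 values as deposited, over 6 libraries and with a trended variance prior. It was two-sided, with Benjamini-Hochberg adjustment over all tested entries and a threshold of 0.05. The test was also run on simulated counts, which did not copy the large spread between these libraries. An entry was tested with a CPM of at least 113 in 3 libraries and at least 15 reads. Named miRNAs were all members, their opposite arms and entries within 10 kb, up to 3 entries of each other list by summed shares, and the 5 tested entries most correlated with a tested member; miR-4451, miR-1260b, miR-375, miR-183-5p and miR-486-3p were named after their values were seen, as were list members at 0. The members and lists were chosen with earlier results of these data known. Alternatives covered scaling, filter, pseudocount, limma-voom, a replicate block and left-out libraries. Sequences are from RefSeq (GRCh38.p14), hairpins and 3′ UTRs from GENCODE 29.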

Additional observations from a re-analysis of the deposited data

How the results depend on the processing

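The log2 fold change of miR-200c-3p was 4.39 with library totals, 3.35 with upper-quartile scaling, 1.85 with a pseudocount of 10, 2.44 with limma-voom and 4.90 with totals that leave out miR-4451. It ranged from 1.73 to 7.63 when 1 library was left out. Without siCTL 1 and siCTL 2 it reversed to −4.18; that fit has 1 control library, assumed to vary like the siPRDX3 libraries. The number of tested entries called was 1 with limma-voom and ranged from 0 to 20 with 1 library left out, the 20 being without siCTL 3 (19 higher, 1 lower); miR-200c-3p was not among them. Without siCTL 1 and siCTL 2 it was 0. All fits with libraries left out kept the entries that passed the filter over all 6 libraries. Without siCTL 3, entries near 0 in siCTL 1 and siCTL 2, such as miR-200c-3p, reached the CPM of the filter through siPRDX3 libraries only. The cause of these shifts was not tested.

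The replicate numbers showed no clear pairing of the samples. Same-numbered libraries correlated at −0.238, 0.177 and 0.140 in their deviations from the group means, and not every library correlated best with its own number. With 3 libraries per group, such correlations cannot decide whether samples were paired. With a replicate block limma called 0 entries, and miR-200c-3p stayed at 3.69 (limma adjusted p = 0.658). The median log2 fold change over the 80 tested entries, 1.72 in the deposited scaling, was 2.57 with library totals, 1.23 with upper-quartile scaling and −1.15 without siCTL 1 and siCTL 2. The share of tested entries higher in siPRDX3 was 63.75%, 73.75%, 58.75% and 21.25% in the same order. Fitted without the filter, the 686 entries with reads had a median of 0.173, and 50.9% of them were higher in siPRDX3. The difference in the miR-200 family's share ranged from −0.0657 to 0.193 percentage points with 1 library left out and was −0.322 without siCTL 1 and siCTL 2. For the intestinal group it ranged from −0.320 to 0.00119 and was −0.638. Outside the members, signs reversed without siCTL 1 and siCTL 2 for miR-375 (−2.65), miR-182-5p (−2.92), miR-183-5p (−2.05) and miR-122-5p (−1.03), and without siCTL 3 for miR-1246 (0.17) and miR-10b-5p (1.01). These refits of the other lists, and those of the untested members and of the 9-member share, were chosen after seeing the data. Depth limits members with few reads: miR-141-3p, miR-194-5p and miR-429 stayed at or under 5 reads in every library.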
